A study of Macaca fascicularis with 22 samples.

Results

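The facilitative glucose transporters are the SLC2A family of membrane proteins, and 9 of the 10 members looked for were measured by 1 probe each on the array, out of 20217 probes in all. The members were chosen by gene identity, as the non-control probes whose accession is the human RefSeq number of a transporter. These were SLC2A1 (NM_006516), SLC2A2 (NM_000340), SLC2A3 (NM_006931), SLC2A4 (NM_001042), SLC2A5 (NM_003039), SLC2A6 (NM_017585), SLC2A8 (NM_014580), SLC2A10 (NM_030777) and SLC2A11 (NM_030807). SLC2A9 was looked for and is not analysed here. All 9 probes passed the filter on low signals, which 17117 of the 20217 probes passed, and none was saturated on any array. RNA of cynomolgus macaque neonates (Macaca fascicularis) was hybridized to 22 single-colour arrays designed for the rhesus macaque. Neonates of average birth weight (ABW) lay between the 50th and 75th centiles of birth weight, and those of lower birth weight (LBW) between the 5th and 25th. Skeletal muscle (biceps femoris by the methods) and umbilical cord had 4 arrays per group and liver had 3. No neonate was treated, all were sired naturally by 1 male, and the labels place sampling at birth while the methods place muscle and liver some days later. The labels give numbered replicates without naming the animals, so the p-values measure the spread between these arrays. By the methods muscle and liver came from the same selected neonates, and cords were collected from the wider set of births they were selected from. The fits across labels therefore treat arrays that may share an animal as independent.

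These proteins let hexoses cross the cell membrane down their gradient, without the sodium gradient that the SLC5A transporters use. The isoforms differ in where they are found. SLC2A1 (GLUT1) serves basal uptake and is abundant in erythrocytes and at blood-tissue barriers. SLC2A3 (GLUT3) has a high affinity and is known from neurons and placenta. SLC2A2 (GLUT2) is the low-affinity transporter of hepatocytes and pancreatic beta cells. SLC2A4 (GLUT4) is the insulin-responsive transporter of muscle and fat, moved from vesicles to the surface when insulin signals. SLC2A5 (GLUT5) carries fructose.

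Values are log2 signals relative to the 75th percentile of the array, so that 0 is that percentile, and levels of different probes are not compared with each other. Before scaling, this percentile lay between 315.5 and 2390 signal units, and between 14596 and 17889 probes per array were well above background. Arrays 4 of both birth weight groups labelled umbilical cord stood apart by their spike-in controls, which lay 3.50 (ABW) and 2.15 (LBW) log2 units below the percentile, while on the other 20 arrays they lay at most 1.16 below it. For muscle, slide 1 carried the ABW arrays and slide 2 the LBW arrays, which makes the effects of slide and of birth weight ones that cannot be told apart. These slides carried no other label, so in comparisons of muscle with the other labels slide and label cannot be told apart either. The labels and the tissue markers part: for all 12 hepatocyte markers the lowest level under the umbilical cord label exceeded the highest under the liver label. ALB, APOA1, AHSG, FGB, CP and F13B did not rise well above background under the liver label. All 9 stromal markers went the other way, without overlap, with a median of -5.74 for the umbilical cord label minus the liver label, and all 8 skeletal muscle markers were highest on the muscle arrays. The tissues are therefore called by their labels, and the arrays are not reassigned.

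SLC2A2, the hepatocyte isoform, divided the labels most widely. On the 8 arrays labelled umbilical cord its level ranged from 1.69 to 3.82 with a median of 2.73. On the 6 arrays labelled liver it ranged from -8.82 to -7.69 with a median of -8.42, and it was not well above background on any of them. On muscle it ranged from -7.84 to -4.07 with a median of -6.36, and 5 of 8 arrays were well above background. No array labelled umbilical cord overlapped any other array. The arrays labelled liver give only a bound, taken from the lowest signal that was well above background on each array. By this bound SLC2A2 was at least 1008-fold higher under the umbilical cord label than under the liver label. The measured means were 2.66 and -8.33, and the test used these measured values rather than the bound (limma, adjusted p = 1.62e-14). The measured muscle mean, which includes arrays not well above background, was 8.93 log2 units below that of the umbilical cord label (SE 0.41, limma, adjusted p = 9.19e-14). SLC2A2 was higher on muscle than under the liver label (limma, adjusted p = 3.76e-04, or 0.057 when arrays were scaled to the spike-in controls). No fold is given for this step, because neither label was well above background on every array. Within each birth weight group the muscle array with the highest SLC2A2, replicate 3 in both (-5.21 in ABW and -4.07 in LBW), also had the highest mean level of the 12 hepatocyte markers, -1.15 and -2.25, where the other muscle arrays had -6.87 to -2.95. Their part in these values was not tested.

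SLC2A4, the insulin-responsive isoform, was a muscle transcript here. It ranged from 2.03 to 3.15 on the 8 muscle arrays with a median of 2.52. The 6 arrays labelled liver held -3.45 to -2.44, and the 8 labelled umbilical cord held -4.01 to -3.18. No muscle array overlapped the others. The muscle mean was 41.8-fold above that of the liver label, a log2 difference of 5.39 (SE 0.18, adjusted p = 1.84e-15), and 69.3-fold above that of the umbilical cord label, a difference of 6.12 (SE 0.17, adjusted p = 3.22e-17). The remaining step in the order was small. SLC2A4 was 0.73 lower under the umbilical cord label than under the liver label (adjusted p = 0.00133), with overlapping arrays, and this call was lost with normexp background correction (-0.28, adjusted p = 0.166) and with scaling to the spike-in controls (-0.27, adjusted p = 0.735).

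SLC2A5, the fructose transporter, was also highest on muscle. Its level ranged from 3.44 to 4.36 on the muscle arrays and from 0.77 to 2.24 on those labelled liver. It ranged from -7.97 to -3.55 under the umbilical cord label, where 6 of 8 arrays were well above background. None of the 3 ranges overlapped. The muscle mean was 5.24-fold above that of the liver label, a log2 difference of 2.39 (SE 0.44, adjusted p = 7.30e-05). The umbilical cord label lay 6.91 below the liver label (SE 0.44, adjusted p = 1.84e-11) and 9.30 below muscle (SE 0.40, adjusted p = 3.81e-14).

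SLC2A1 and SLC2A3, the isoforms of basal and high-affinity uptake, were highest on the arrays labelled liver. SLC2A1 ranged from -0.49 to 1.19 there, from -3.65 to -2.37 under the umbilical cord label and from -5.28 to -2.59 on muscle. The umbilical cord label was 13.9-fold below the liver label, a log2 difference of -3.80 (SE 0.37, adjusted p = 1.47e-08), and muscle was 34.0-fold below it, a difference of -5.09 (SE 0.37, adjusted p = 2.36e-10). The lower neighbours overlapped: muscle was 1.29 below the umbilical cord label (adjusted p = 0.00243), but only 0.43 below it with normexp background correction (adjusted p = 0.085).

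SLC2A3 ranged from -0.46 to 0.95 under the liver label, from -4.30 to -2.64 on muscle and from -5.50 to -4.23 under the umbilical cord label. The umbilical cord label was 29.2-fold below the liver label, a log2 difference of -4.87 (SE 0.26, adjusted p = 1.32e-12). Muscle was 11.6-fold below the liver label, a difference of -3.53 (SE 0.26, adjusted p = 3.12e-10). Muscle lay 1.33 above the umbilical cord label (adjusted p = 6.06e-05), with 1 muscle array inside the umbilical cord range, and by 0.15 when scaled to the spike-in controls (adjusted p = 0.83).

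Markers of blood cells, which carry SLC2A1, varied between the same arrays. The mean level of the erythroid list ranged from -1.25 to 2.47 under the liver label, from -2.19 to 0.03 under the umbilical cord label and from -3.29 to -1.08 on muscle. Under the liver label the array with the lowest SLC2A1, LBW replicate 2 at -0.49, had an erythroid mean of 2.27, among the highest. On muscle, LBW replicate 2 had both the highest SLC2A1 (-2.59) and the highest erythroid mean (-1.08). ABW replicate 1, next in SLC2A1 at -3.48, had an erythroid mean of -2.83, among the lowest. In such bulk tissue, fewer cells of a type and less RNA per cell cannot be told apart.

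The remaining 4 members differed less between labels. SLC2A10 (GLUT10), known from connective tissue of arteries, was low on muscle, where it ranged from -3.55 to -2.78. It ranged from -2.15 to -1.24 under the liver label and from -2.15 to -1.02 under the umbilical cord label. Muscle lay 1.5 below the liver label (SE 0.19, adjusted p = 6.82e-07) and 1.65 below the umbilical cord label (SE 0.17, adjusted p = 4.81e-08), without overlap. The liver and umbilical cord labels were 0.14 apart (95% confidence interval -0.25 to 0.54, adjusted p = 0.507). SLC2A8 (GLUT8), an isoform of intracellular membranes, was ordered umbilical cord label, muscle, liver label, with means of -0.87, -1.49 and -2.14. The outer labels were 1.26 apart (SE 0.27, adjusted p = 4.35e-04). The steps between neighbours were 0.61 (adjusted p = 0.041) and 0.65 (adjusted p = 0.044). The step from the liver label to muscle reversed to -0.081 when scaled to the spike-in controls, and within slide 4 the umbilical cord label lay 0.95 above the liver label (adjusted p = 0.053). That slide holds 2 ABW arrays of the umbilical cord label and 2 LBW arrays of the liver label, so label and birth weight cannot be told apart within it.

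SLC2A6 (GLUT6), known from leukocytes and spleen, ranged from -1.52 to -0.85 under the liver label, from -1.11 to -0.22 on muscle and from -1.24 to 0.92 under the umbilical cord label. The umbilical cord label was 0.76 above the liver label (SE 0.31, adjusted p = 0.038). ABW replicate 3 (0.89) and LBW replicate 1 (0.92) were the only arrays of any label above 0. Within slide 4, with the same limit, the difference was 0.23 (adjusted p = 0.493). Of 6 myeloid and leukocyte markers 2 were higher and none lower under the umbilical cord label than under the liver label, and all 6 were lower on muscle than under either, where 28.1% (liver label) and 29.1% (umbilical cord label) of all probes were lower. Of 6 endothelial markers 3 were lower under the umbilical cord label than under the liver label, a comparison in which 35.6% of all probes were higher and 31.3% lower. SLC2A11 (GLUT11), a fructose and glucose transporter, passed in no comparison of labels with the settings of the report. Its means were -3.90 under the liver label, -3.66 on muscle and -3.18 under the umbilical cord label. The umbilical cord label was 0.72 above the liver label (limma, adjusted p = 0.073), and 2 of 33 alternatives passed adjustment. Muscle was 0.48 below the umbilical cord label (limma, adjusted p = 0.199), and 2 of 32 alternatives passed.

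**Figure D1:**
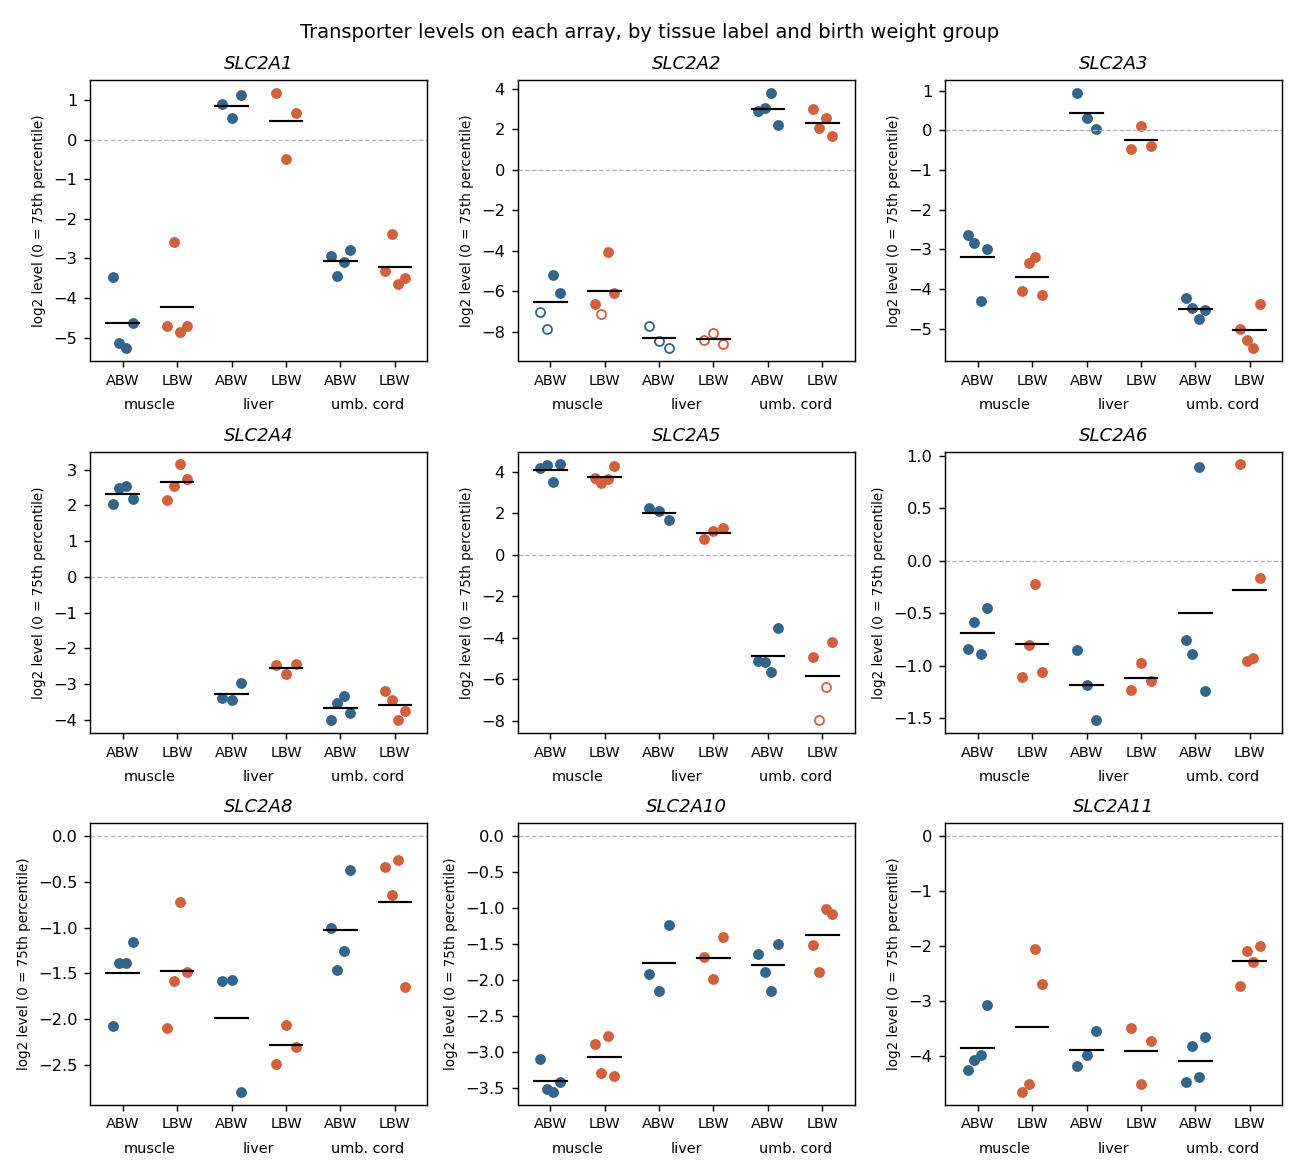
Log2 level of each transporter on every array (vertical axis, 0 is the array's 75th percentile, with its own scale in each panel) by tissue label and birth weight group. Each point is 1 array, blue for ABW and orange for LBW, filled where the probe was well above background and open where it was not, and bars are group means. SLC2A2 lies between 1.69 and 3.82 under the umbilical cord label and is open on all 6 arrays labelled liver, SLC2A4 is highest on muscle, and the LBW arrays of SLC2A11 under the umbilical cord label all lie above the ABW arrays.

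In counts, 7 of the 9 transporters differed between the umbilical cord and liver labels at an adjusted p under 0.05, 3 higher and 4 lower under umbilical cord. Of all 17117 probes tested 66.9% did, 35.6% higher and 31.3% lower. Between muscle and the liver label 7 passed, 4 higher and 3 lower on muscle, with 65.3% of all probes called, 37.1% higher and 28.1% lower. Between muscle and the umbilical cord label 7 passed, 3 higher and 4 lower on muscle, with 64.9% of all probes called, 35.8% higher and 29.1% lower. Arrays of the labels did not overlap for 4, 5 and 4 members in these comparisons, as for 38%, 42.5% and 32.2% of all probes. The median log2 differences of the members were 0.14, 0.41 and -0.48, against 0.13, 0.21 and 0.11 over all probes. The share of members that differed is thus near the share of all probes, and the sizes above describe single genes.

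The comparison of LBW with ABW asks whether birth weight within the normal range goes with a different transcript level. SLC2A11 was the transporter that passed adjustment over all probes, and it did so under the umbilical cord label. It is in the study's own list from these arrays, so this call is not independent evidence. The 4 ABW arrays held -4.47, -3.82, -4.39 and -3.65, and the 4 LBW arrays held -2.73, -2.10, -2.29 and -2.0. Every LBW array lay above every ABW array. SLC2A11 was up regulated 3.49-fold in LBW, a log2 difference of 1.80 (SE 0.31, 95% confidence interval 1.12 to 2.49, limma, adjusted p = 0.032). The exact two-sided permutation test gave p = 0.029, the smallest that 4 against 4 allows. Of all probes 0.625% passed in this comparison, and 0.0234% passed as higher in LBW. Groups without overlap were found for 5.85% of all probes, 2.65% with LBW the higher, and an unadjusted p under 0.05 for 8.94%.

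The 4 LBW arrays were all on slide 5 and the ABW arrays on slides 4 and 6. Slide 6 was read with another version of the scanner software. No slide held arrays of both groups under this label. Any effect of slide 5 is therefore part of the LBW difference, and its share was not tested. Against the ABW arrays of slide 4 alone the SLC2A11 difference was 1.87 (adjusted p = 0.209) and against those of slide 6 alone 1.74 (adjusted p = 0.159). Each of these contrasts still sets slide 5 against another slide, so neither separates slide 5 from LBW. The size held in all alternatives between 1.33 and 1.95, but the call was lost without any 1 of 7 of the 8 arrays (adjusted p 0.056 to 0.113), and remained without LBW replicate 1 (0.040). It was also lost with normexp background correction (SLC2A11 adjusted p = 0.143), scaling to the spike-in controls (1.0), the methods' t-test (0.361) and the replicate number as a block (0.078). The hepatocyte markers had means of 5.50 to 6.41 on the ABW arrays and 5.43 to 5.88 on the LBW arrays. Of the 12, 6 lay above 0 and 6 below in the difference, with a median of -0.006. Only F13B (-3.81) and CP (-3.72) passed adjustment. All 9 erythroid probes lay below 0 (median -0.73) and all 6 endothelial markers above 0 (median 0.46). In each of these 2 lists 1 had an unadjusted p under 0.05, as had 8.94% of all probes, and none passed adjustment. The part of these markers was not tested.

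The same probe did not separate birth weight under the other labels. On muscle the ABW arrays held -4.25, -4.08, -3.99 and -3.08 and the LBW arrays -4.66, -4.51, -2.06 and -2.69, so the LBW arrays lay on both sides of the ABW arrays. The difference was 0.37 (95% confidence interval -0.95 to 1.69, adjusted p = 0.817). Under the liver label it was -0.02 (95% confidence interval -0.79 to 0.76). The test of whether the 3 differences of SLC2A11 were unequal gave F = 4.06 with an adjusted p of 0.423. At an unadjusted p it was the 1 member under 0.05, as were 10.1% of all probes. No member passed adjustment by limma there, and 1.01% of all probes did.

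Under the liver label, SLC2A4 and SLC2A5 differed in opposite directions at an unadjusted p only. SLC2A4 held -3.38, -3.45 and -2.98 on the ABW arrays and -2.45, -2.72 and -2.44 on the LBW arrays. Every LBW array was the higher, by 0.73 on average (SE 0.20, 95% confidence interval 0.24 to 1.22, limma, adjusted p = 0.783). SLC2A5 held 2.24, 2.11 and 1.70 on the ABW arrays and 0.77, 1.15 and 1.30 on the LBW arrays. Every LBW array was the lower, by 0.94 on average (SE 0.24, 95% confidence interval 0.38 to 1.51, limma, adjusted p = 0.748). The exact permutation test of either gave p = 0.10, the smallest that 3 against 3 allows. These 2 of 9 members stand beside 5.99% of all probes at an unadjusted p under 0.05, and 12% of all probes whose groups did not overlap, 8.82% with LBW the higher and 3.21% with LBW the lower.

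No member passed adjustment under the liver label by limma or by the methods' t-test, and no probe of the array did. LBW replicate 1 shared slide 3 with the ABW arrays. Within that slide this single LBW array lay 0.82 above the ABW mean for SLC2A4 and was -1.25 from it for SLC2A5, values that carry no spread of their own for LBW. With the spread of all 6 groups SLC2A5 was no longer under 0.05 before adjustment, and with scaling to the spike-in controls neither gene was. The skeletal muscle markers TNNC2 (0.61) and MYOG (0.72) were also higher on these LBW arrays at an unadjusted p only. Of all 8 such markers 4 lay above 0 and 4 below in this difference, with a median of -0.01. The mean of the 8 skeletal muscle markers ranged from -0.25 to 0.05 in ABW and from -0.31 to 0.47 in LBW, and their part in the SLC2A4 difference was not tested.

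SLC2A3 had the lower mean in LBW under each label without passing within any, and under the umbilical cord label the direction turned with normexp background correction (0.38). On muscle the ABW arrays held -2.64, -2.83, -4.30 and -3.0 and the LBW arrays -4.06, -3.35, -3.20 and -4.16. The groups overlapped through ABW replicate 3, and the difference was -0.50 (95% confidence interval -1.38 to 0.38). Under the liver label the ABW arrays held 0.95, 0.30 and 0.04 and the LBW arrays -0.46, 0.10 and -0.39. The difference was -0.68 (95% confidence interval -1.39 to 0.03, exact permutation p = 0.20). Under the umbilical cord label the ABW arrays held -4.23, -4.49, -4.76 and -4.53 and the LBW arrays -5.02, -5.28, -5.50 and -4.38, where replicate 4 was the LBW array inside the ABW range. The difference was -0.54 (95% confidence interval -1.23 to 0.15). Over the mean of the 3 labels the difference was -0.57, 1.49-fold (SE 0.21, 95% confidence interval -1.01 to -0.14, limma, adjusted p = 0.233), and it shrank to -0.15 with normexp background correction, no longer under 0.05 before adjustment. The stromal markers were high under the label where SLC2A3 was high. On muscle they had means of 1.63 to 2.61 in ABW and 1.18 to 1.88 in LBW. All 9 lay below 0 in the muscle difference, 4 of them at an unadjusted p under 0.05. Of all probes 14.7% had such a p in either direction, and 578 of 17117 were lower. Of 6 myeloid and leukocyte markers 5 lay below 0 on muscle (median -0.58) and 5 under the liver label (median -0.88). Under the umbilical cord label 2 lay below 0 and 4 above (median 0.18). None of the 6 passed adjustment. The part of these markers was not tested.

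Over the mean of the 3 labels 4 members had an unadjusted p under 0.05, where 13.6% of all probes did, 8.45% as higher and 5.12% as lower, and none passed adjustment. SLC2A3 and SLC2A5 were the lower and SLC2A4 and SLC2A11 the higher in LBW. SLC2A5 differed by -0.75 (SE 0.35, adjusted p = 0.351), SLC2A4 by 0.38 (SE 0.14, adjusted p = 0.255) and SLC2A11 by 0.72 (SE 0.28, adjusted p = 0.264). The study had itself picked SLC2A3, SLC2A4 and SLC2A11 for a birth weight effect on these arrays. Their values here and within the labels are therefore not independent evidence. For SLC2A5 the unadjusted p exceeded 0.05 when any 1 of 13 of the 22 arrays was left out, up to 0.083. Of the LBW arrays labelled umbilical cord that enter this mean, 2 of 4 were not well above background for SLC2A5 (-7.97 and -6.36), and the difference under that label, -0.99, turned to 0.33 with normexp background correction.

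On muscle no member passed, before adjustment or after it, while 14.7% of all probes had an unadjusted p under 0.05. The differences ran from -0.50 for SLC2A3 to 0.57 for SLC2A2, which was well above background on only 5 of the 8 muscle arrays. SLC2A4, the insulin-responsive isoform, held 2.03, 2.49, 2.54 and 2.19 in ABW and 2.16, 2.54, 3.15 and 2.74 in LBW. The LBW mean was the higher by 0.33 (95% confidence interval -0.21 to 0.88, exact permutation p = 0.229), with overlapping arrays. In 1 of 21 alternatives this difference turned, to -0.20. SLC2A1 differed by 0.41 (95% confidence interval -0.87 to 1.69) and had its highest arrays in both groups, LBW replicate 2 at -2.59 and ABW replicate 1 at -3.48. Its difference turned in 2 of 21 alternatives, to -0.13 at the lowest. Of the 9 erythroid probes 5 were higher in LBW muscle at an unadjusted p under 0.05, as were 1946 of all 17117 probes. None of the 9 passed adjustment, and their part was not tested.

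SLC2A1, SLC2A2, SLC2A6, SLC2A8 and SLC2A10 passed in no birth weight comparison. Under the umbilical cord label SLC2A2 held 2.91, 3.08, 3.82 and 2.20 in ABW and 3.01, 2.05, 2.56 and 1.69 in LBW. The LBW mean was the lower by 0.68 (95% confidence interval -1.59 to 0.24, adjusted p = 0.647), with overlapping arrays. SLC2A10 differed by 0.27 over the mean of the 3 labels (95% confidence interval -0.04 to 0.58, adjusted p = 0.433). SLC2A1, SLC2A6 and SLC2A8 differed there by -0.04, 0.06 and 0.01, with 95% confidence intervals of -0.66 to 0.57, -0.46 to 0.58 and -0.45 to 0.47.

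**Figure D2:**
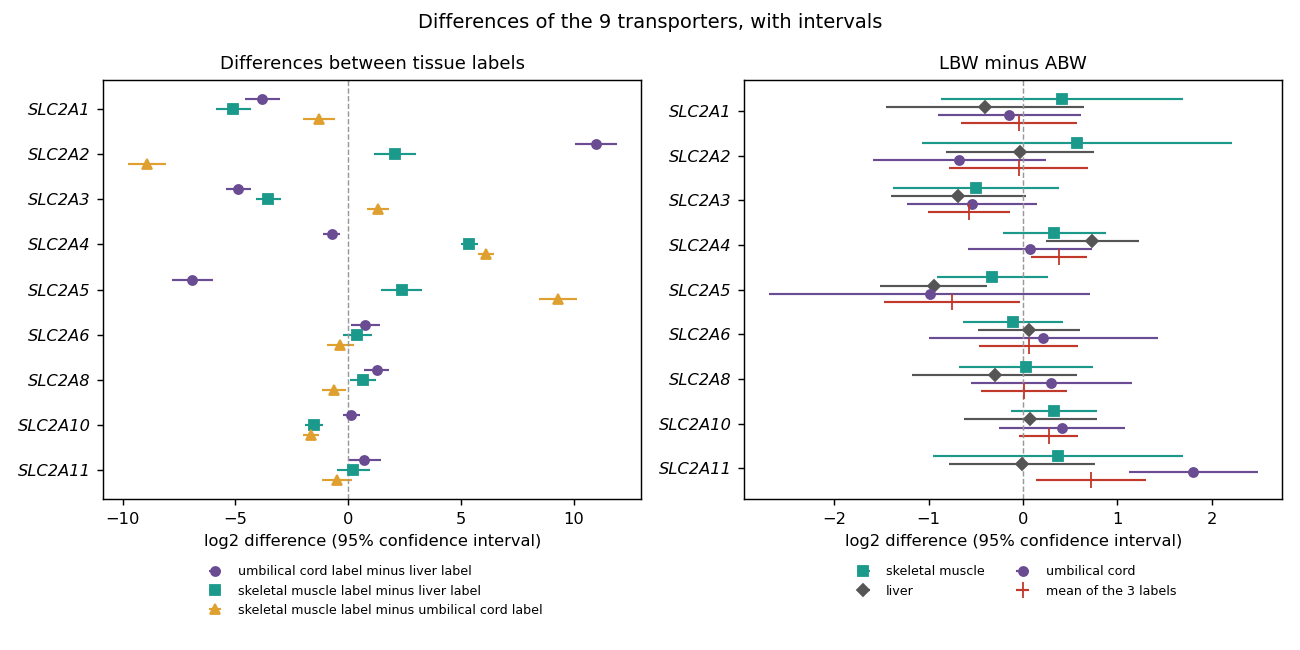
Log2 differences of the 9 transporters with 95% confidence intervals (horizontal axes, with different scales), between tissue labels (left) and between LBW and ABW within each label and over their mean (right). The SLC2A2 differences from the liver label are drawn as measured although that label gives only a bound, 9.98 for umbilical cord minus liver, and among the birth weight differences the interval of SLC2A11 under the umbilical cord label, 1.12 to 2.49, lies farthest from 0.

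**Figure D3:**
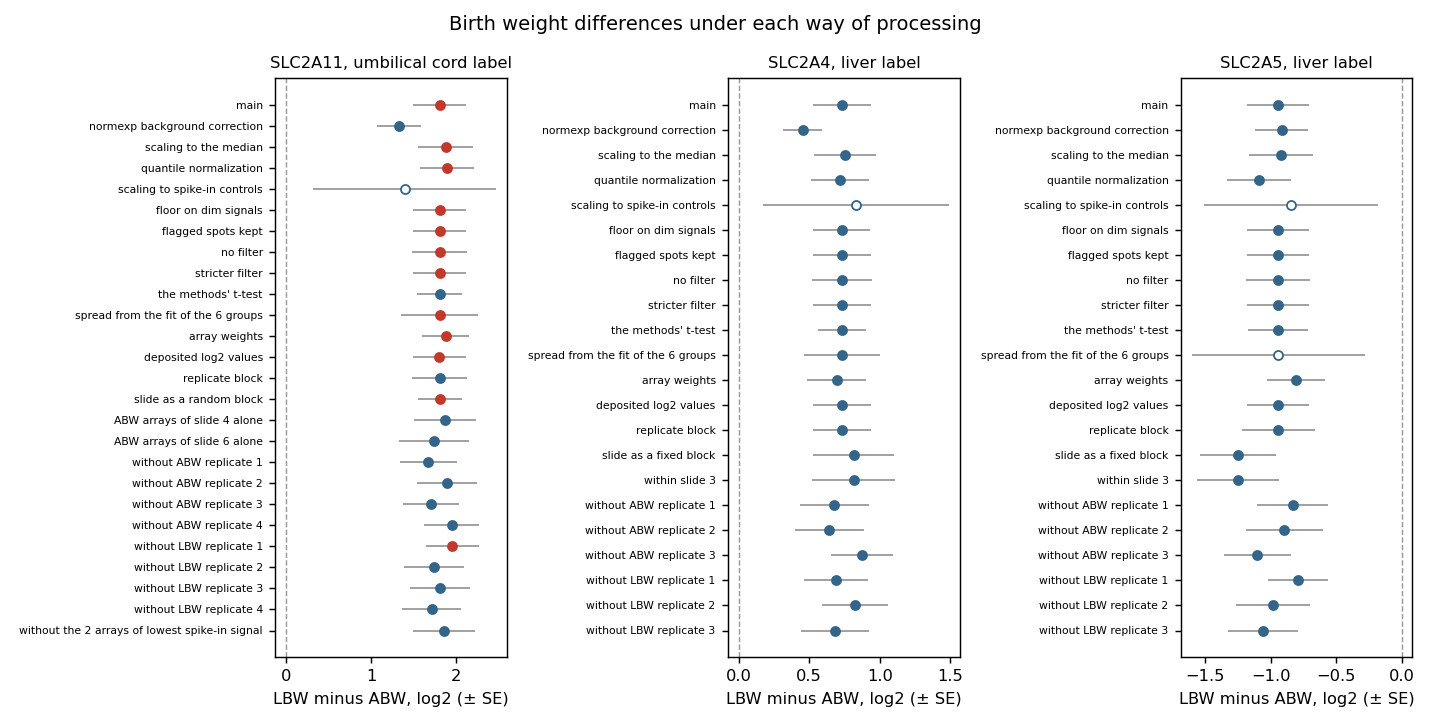
LBW minus ABW (horizontal axis, log2, bars are ± SE) under each way of processing, for SLC2A11 under the umbilical cord label and for SLC2A4 and SLC2A5 under the liver label. Red points passed an adjusted p under 0.05, blue points an unadjusted one only, and open points neither. SLC2A11 stays between 1.33 and 1.95 while its call comes and goes, and within slide 3 the LBW group is 1 array.

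Further SLC2A genes were on the array. SLC2A12 (GLUT12), another isoform of insulin-sensitive tissue, was 2.80 higher on muscle than under the liver label and 3.05 higher than under the umbilical cord label. It was lower in LBW muscle by 1.03 (SE 0.25, adjusted p = 0.123), with no overlap of the groups, which 1.92% of all probes showed in that direction. SLC2A13, the proton-coupled inositol transporter, was well above background on 1 of the 8 muscle arrays and on all arrays of the other labels. SLC2A7 was on the array but did not pass the filter.

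The sodium-coupled sugar transporters include carriers that move glucose or inositol uphill. Over the mean of the 3 labels 2 of the 7 passed adjustment, both higher in LBW, where 0.888% of all probes passed. They were SLC5A2 (SGLT2), the glucose transporter of the kidney tubule, by 0.68 (SE 0.15, adjusted p = 0.032), and SLC5A11, an inositol transporter, by 0.94 (SE 0.21, adjusted p = 0.032). Both are in the study's own list from these arrays. Of all 17117 probes 43 passed as higher in this comparison, 5 with normexp background correction and 1 with scaling to the spike-in controls. The list was dim on muscle, with means of -6.24 to -5.79 on the ABW arrays and -5.92 to -5.02 on the LBW arrays. On muscle SLC5A11 (1.22), SLC5A2 (0.77) and SLC5A4 (0.74) were higher in LBW at an unadjusted p only, as was SLC5A10. There 14.7% of all probes differed in either direction, and 1946 of 17117 were higher. SLC5A10 was not well above background on any of the 8 muscle arrays, so its muscle values are background signals. Under the umbilical cord label SLC5A9 and SLC5A10 were well above background on 8 of 8 arrays, and under the liver label on 0 of 6 and 1 of 6.

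Of 13 genes of insulin signalling and the traffic of SLC2A4 vesicles, none passed adjustment for birth weight. On muscle none had an unadjusted p under 0.05, and under the umbilical cord label STXBP3, a syntaxin-binding protein of vesicle fusion, was lower in LBW by 1.25 at an unadjusted p only. By label, 8 were higher and 1 lower on muscle than under the liver label, and 9 were higher and none lower than under the umbilical cord label. Of all probes 37.1% were higher and 28.1% lower in the first comparison, and 35.8% and 29.1% in the second. LNPEP, the aminopeptidase that resides in SLC2A4 vesicles, was 2.64 and 2.40 higher on muscle. MEF2A, a transcription factor of the SLC2A4 promoter, was 1.14 and 2.32 higher. TBC1D1, a Rab GTPase-activating protein, was 1.60 lower on muscle than under the liver label but 2.44 higher than under the umbilical cord label.

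Among 10 genes that phosphorylate sugars or release glucose, all differed between the umbilical cord and liver labels, 6 higher and 4 lower under umbilical cord, where 66.9% of all probes differed, 35.6% higher and 31.3% lower. The higher ones included G6PC, the catalytic subunit that frees glucose, by 7.04. SLC37A4, which carries glucose 6-phosphate to that enzyme, was higher by 5.14. HK1 and HK2, both hexokinases, were lower by 3.70 each. G6PC3, another glucose 6-phosphatase subunit, was lower by 0.62. For birth weight none of the 10 passed adjustment. HK2 was 2.05 lower in LBW muscle (SE 0.64, adjusted p = 0.189).

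Of 11 genes that respond to hypoxia, as SLC2A1 and SLC2A3 are known to do, 9 lay below 0 in LBW over the mean of the 3 labels, with a median of -0.22 against 0.04 over all probes. None passed adjustment. At an unadjusted p under 0.05, 4 were lower and none higher, where 5.12% of all probes were lower. They were LDHA (-0.64), PGK1 (-0.54), EGLN3 (-0.53) and P4HA1 (-0.51). On muscle alone the same genes were lower at an unadjusted p, with LDHA at -1.03 and EGLN3 at -0.73. There 14.7% of all probes differed in either direction, and 578 of 17117 were lower. The list as a whole had a muscle median of -0.03, with 5 genes above 0 and 6 below. Its median was -0.33 under the liver label, with 1 above 0 and 10 below. Under the umbilical cord label it was -0.30, with 3 above and 8 below. All 4 are in the study's own list from these arrays, so they are not independent evidence of the direction.

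**Figure D4:**
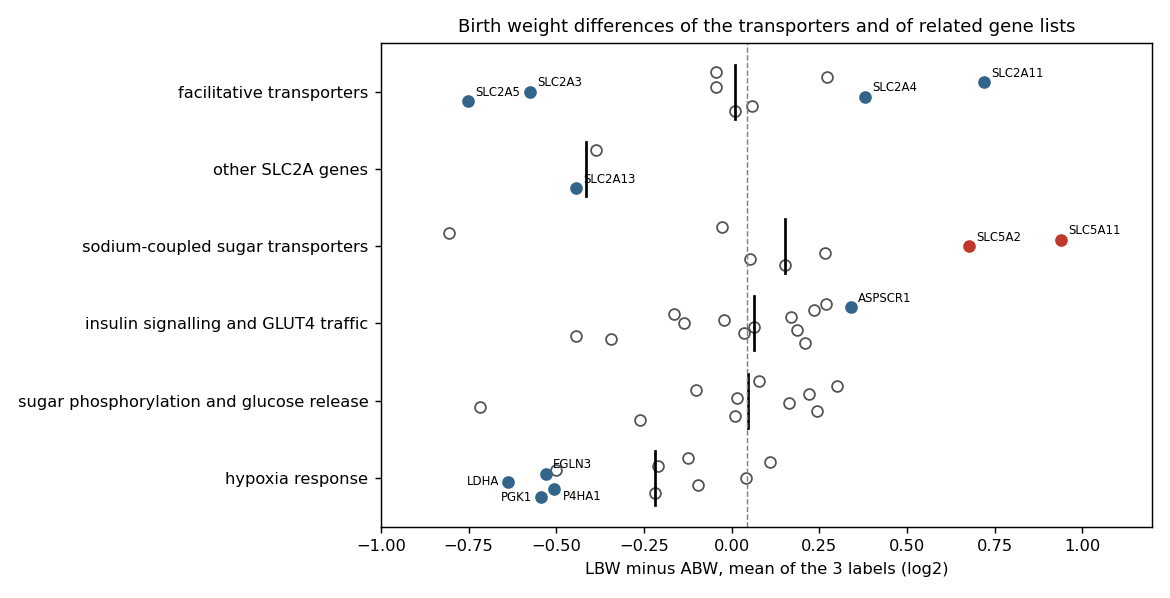
LBW minus ABW over the mean of the 3 labels (horizontal axis, log2) for the transporters and 5 related lists, with 1 point per probe and a bar at each list's median. Red points passed an adjusted p under 0.05, blue points an unadjusted one only, open points neither, and the dashed line is the median of all probes, 0.04; SLC5A2 and SLC5A11 are the red points.

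The named probes whose levels ran most like a transporter over the 22 arrays were sought among 1612 probes, most of them named through the study's own gene list. For SLC2A4 they were C19orf47 (r = 0.99), TNNI2 (0.99) and TNNC2 (0.99), the last a pair of fast-muscle troponins. For SLC2A2 they were RDH16 (0.99), FGB (0.99) and APOA1 (0.99). For SLC2A3 they were ANXA1 (0.97), SLIT3 (0.97) and FBN1 (0.97), and for SLC2A1 RHOC (0.96), MEST (0.94) and C5orf38 (0.94). These correlations are descriptions, and the arrays share 3 labels whose differences carry them.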

How the data were processed

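Per the file headers, the deposited intensity values are Agilent Feature Extraction signals of each spot after background subtraction and detrending, not scaled between arrays, beside uncorrected spot and local background signals. The table that the authors deposited holds log2 values, made in GeneSpring from the 75th percentile and a baseline by their methods. In these columns the probes' medians within a tissue label were 0, and their scale matched the scanner values with slopes of 0.997 to 1.01. The column medians lay between -0.06 and 0.12. The baseline removes levels between labels, so this table served as an alternative within labels.

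Replicate spots were averaged, and from each log2 value the 75th percentile of its array was subtracted. Probes entered the fits if 75% or more of the arrays in 1 of the 6 groups were well above background. Comparisons used limma 3.58.1 in R 4.3.3, within each label and over all 6 groups, with Benjamini-Hochberg adjustment over 17117 probes, and were tested on simulated data. Summaries and exact permutation tests used Python 3.11.15. Slides were read from the headers. The number of arrays limits the precision. No replicates were identical: arrays of a group correlated at 0.94 to 0.98.

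The members and lists were chosen with earlier results of these data known. Of 124 accessions looked for, 104 were on the array, with symbols assigned to human RefSeq numbers, and 13 pairs that the study's gene list also gives had the same symbol. All members were described, with full statistics for those with an unadjusted p under 0.05 for birth weight and for SLC2A1, SLC2A2, SLC2A3, SLC2A4 and SLC2A11. Other genes were named when past an adjusted p under 0.05, or for birth weight an unadjusted one with a 1.5-fold difference, up to 5 per list by size. The markers named beside a result, and the hypoxia genes, are exceptions, named with their values known. Alternatives covered background correction, scaling, filters, spread, weights, the methods' t-test, the deposited table, slide and replicate blocks and each array left out. Some genes of these lists are not reported here.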

Additional observations from a re-analysis of the deposited data

Results flagged for a closer look

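Of 36 groups of 4 arrays, 1 had an array far from the others, where chance alone marks about 1 in 20. It was SLC2A1 in LBW muscle, where replicate 2 held -2.59 and the other arrays -4.86 to -4.70. The gap took 0.93 of the group's range.

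The birth weight difference of SLC2A11 was unequal between the labels before adjustment (limma, p = 0.034 for the F statistic, beside an exact permutation p of 0.029 for the umbilical cord label alone), and not after it (adjusted p = 0.423). Its differences were 1.80 under the umbilical cord label, 0.37 on muscle and -0.02 under the liver label.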

How the results depend on the processing

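Scaling to the spike-in controls moved the median of all probes most, from 0.07 to -0.47 for birth weight on muscle, from -0.01 to -0.42 under the umbilical cord label and from 0.11 to -1.07 for muscle minus the umbilical cord label. It gave 3 transporters with an unadjusted p under 0.05 on muscle (0 with the settings and arrays of the report), 0 under the liver label (2), 0 under the umbilical cord label (1), 1 over the mean of the 3 labels (4) and 0 for the interaction (1), and 0 with an adjusted p under the umbilical cord label (1). It reversed SLC2A8 in muscle minus the liver label, to -0.081. The spread of the 6 groups left 1 member at an unadjusted p under the liver label.

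The adjusted call of SLC2A11 under the umbilical cord label was lost (0 members) with normexp background correction, the methods' t-test, the ABW arrays of slide 4 or of slide 6 alone, and without the 2 arrays of lowest spike-in signal, an alternative chosen after seeing the data. At an unadjusted p, that last alternative gave 3 members under the umbilical cord label and 0 for the interaction, array weights gave 2 under the umbilical cord label, and normexp gave 2 for the interaction.

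With the replicate number as a block, SLC2A11 under the umbilical cord label had the same difference, 1.80, and an adjusted p of 0.078, so that 0 members passed. The block changed no other call of a birth weight difference. Same-numbered arrays correlated between -0.22 and 0.30 in their deviations, and the numbers do not pair the arrays.

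With each array left out in turn, members at an unadjusted p numbered 0 to 1 on muscle, 2 to 4 under the liver label, 1 to 2 under the umbilical cord label, 3 to 5 over the mean and 0 to 1 for the interaction. Members at an adjusted p numbered 0 to 1 under the umbilical cord label, 0 under the other labels, 6 to 8 in the comparisons of the umbilical cord label with the liver label and with muscle, and 6 to 7 in muscle against the liver label. The lost calls between labels were those of SLC2A6 (umbilical cord minus liver, without any 1 of 7 arrays, adjusted p up to 0.089) and SLC2A8 (muscle minus liver, 10 arrays, up to 0.161; muscle minus umbilical cord, 9 arrays, up to 0.093). The cause of these changes was not tested. The other 18 called differences between labels kept their direction and their call when each array was left out. Dim signals limit SLC2A2 under the liver label, which has only a bound, SLC2A2 on muscle, and SLC2A5 under the umbilical cord label.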
